A study of Homo sapiens with 4 samples.

Results

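The genes described here carry proteins and RNA across the nuclear envelope. They were 46 gene symbols listed by function, and the list was chosen with earlier results of these data known. It held 6 importin alphas, 11 members of the importin beta family, 6 exportins, 5 genes of the Ran cycle, 16 nucleoporins and 2 genes of mRNA export. A gene was measured by the probe sets whose platform annotation gave its symbol alone, and its brightest such probe set stood for it. This found 44 of the 46 genes, on 139 probe sets, among 19775 genes and 54613 probe sets in all, control probe sets aside. NUTF2 had only probe sets shared with the pseudogene NUTF2P4, and no probe set was matched to NXF1. All 44 measured genes passed the filter on dim probe sets, as did 133 of their probe sets.

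RNA came from Raji, an established Burkitt lymphoma line that carries Epstein-Barr virus, and was hybridised to 4 Affymetrix expression arrays. In 1 clone TALENs, engineered nucleases built to cut at a given DNA sequence, had been used to lower DLEU1, a gene for a long non-coding RNA, and the other clone was a wild-type control. Each clone was run on 2 arrays, called replicates 1 and 2, and no other treatment separates the groups in the labels. With 1 clone a group, a difference between the clones cannot be told apart from an effect of DLEU1, and p-values measure only the spread between duplicate arrays, which may be technical. Since RNA was taken from whole cultures, fewer cells of a kind and less RNA per cell cannot be told apart.

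As background, importin beta proteins bind cargo in the cytoplasm, either directly or through an importin alpha adaptor that reads the nuclear localisation signal, and pass through the nuclear pore. Inside the nucleus the small GTPase RAN, loaded with GTP by RCC1 on chromatin, releases import cargo and holds export cargo on the exportins; RANGAP1 and RANBP1 end the cycle on the cytoplasmic side. The pore is built from ring-shaped scaffolds, a channel of flexible FG repeats, cytoplasmic filaments and a nuclear basket, while most mRNA leaves on the NXF1 and NXT1 pair. Fast-dividing lymphoma cells depend on this traffic, and XPO1 is a drug target in blood cancers.

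Values are linear MAS5 signal intensities with no unit, and differences are log2(intensity + 16) of the DLEU1-downregulated arrays less that of the controls. The 4 arrays did not share a common level. Their 2% trimmed means were 163 and 131 in the controls and 172 and 197 in the downregulated clone, so control replicate 2 was the dimmest and DLEU1-downregulated replicate 2 the brightest. Quantile normalization, which gives every array the same distribution of values, moved the median difference of all 13284 tested genes from 0.18 to -0.01. Most named genes are therefore given on both scales, and "rose" or "fell" without a scale means an adjusted p under 0.05 (limma, Benjamini-Hochberg over 32768 probe sets) in the same direction on both. Correlations of log2 values were 0.986 within the controls, 0.989 within the downregulated clone and from 0.970 to 0.971 between clones. The 8 measured B-cell markers lay between 373 and 8376 on the 4 arrays, and those of T cells, myeloid, epithelial and fibroblast cells between 0.4 and 121. The B-cell markers summed to 25650 and 21870 in the controls and 22970 and 25860 in the downregulated clone, and 0 of them passed on both scales (limma), while 7 of the 8 were lower after quantile normalization alone. Of the other lists, the T-cell gene TRAT1 rose (12.7 and 9.7 against 39.5 and 59.1) and the fibroblast gene COL1A2 fell; their part in the results was not tested.

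DLEU1 itself read 1363 and 1024 in the controls against 524 and 617 in the downregulated clone, so the groups did not overlap and followed the labels. It was 2.09-fold lower (log2 difference -1.04, SE 0.24, adjusted p = 0.00032 as deposited; -1.38, SE 0.07, adjusted p = 2.92e-06 after quantile normalization). An exact permutation test of 2 arrays against 2, two-sided, gave p = 0.333 for DLEU1, the smallest value its 6 assignments allow. As deposited the call was lost without DLEU1-downregulated replicate 1 (adjusted p = 0.221) or replicate 2 (adjusted p = 0.141), and it held after quantile normalization without any 1 array.

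Of the 44 transport and pore genes, 15 rose and 0 fell on both scales. Among all tested genes 19.2% rose and 5.37% fell, and the members' share was 34.1%. The transport genes are brighter than most, and brighter genes were called higher more often: of the 2553 genes within the members' middle range of brightness, 30.6% rose and 3.88% fell, so the members' share lies near that of equally bright genes. On the separate scales 30.9% of those genes were higher and 3.88% lower as deposited, and 33.5% and 31.7% after quantile normalization. As deposited the count was 15 higher and 0 lower, against 20.3% and 5.74% of all genes; limma left 0 lower also at an unadjusted p under 0.05. After quantile normalization it was 17 higher and 9 lower, against 20.7% and 20.6%. The 9 were KPNB1, TNPO1, IPO7, XPO7, RAN, NUP133, NUP98, RANBP2 and NUP88, and the 2 added rises were KPNA6 and RANGAP1. In deposited values the arrays of the 2 clones did not overlap in 33 genes that read higher and 2 that read lower. The shares of all genes on that scale were 43.3% and 17.8%, and no share was taken for equally bright genes. Both downregulated arrays had larger trimmed means than both controls there. The median difference of the members was 0.46 as deposited and 0.14 after quantile normalization, beside 0.37 and 0.01 for genes of their middle brightness. Without DLEU1-downregulated replicate 1, 2 of the 15 rises remained (KPNA3 and RCC1), without replicate 2 none did, and without control replicate 2, 10 did; after quantile normalization alone, leaving out any 1 array left 11 to 17 higher.

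**Figure D1:**
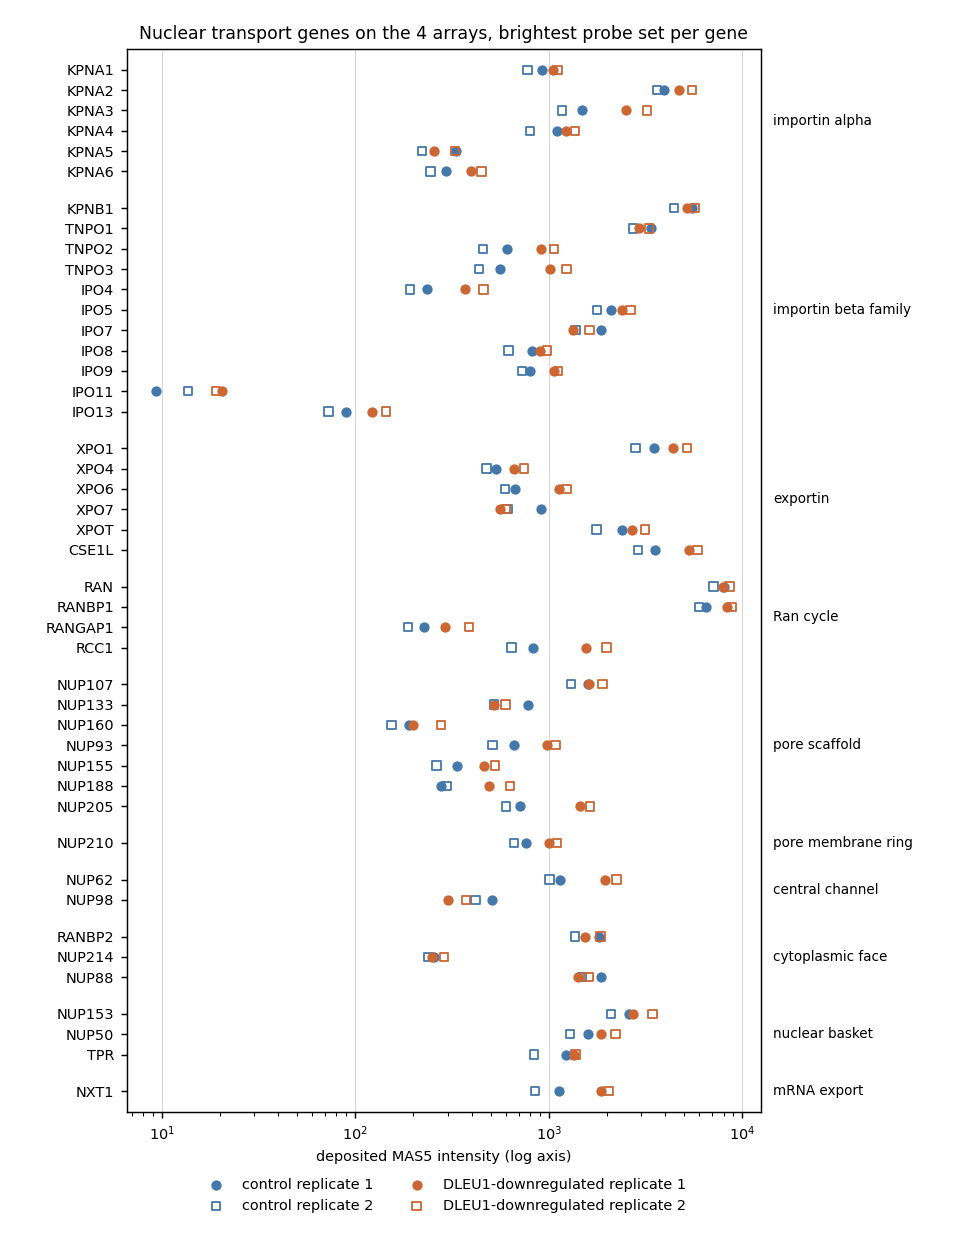
Deposited intensity (log scale, no unit) of each measured transport and pore gene on the 4 arrays, grouped by role, with 1 point per array. KPNA3, TNPO3, RCC1 and NUP205 show the downregulated arrays well above the controls, while RAN, TNPO1 and RANBP2 show the 4 points interleaved.

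**Figure D2:**
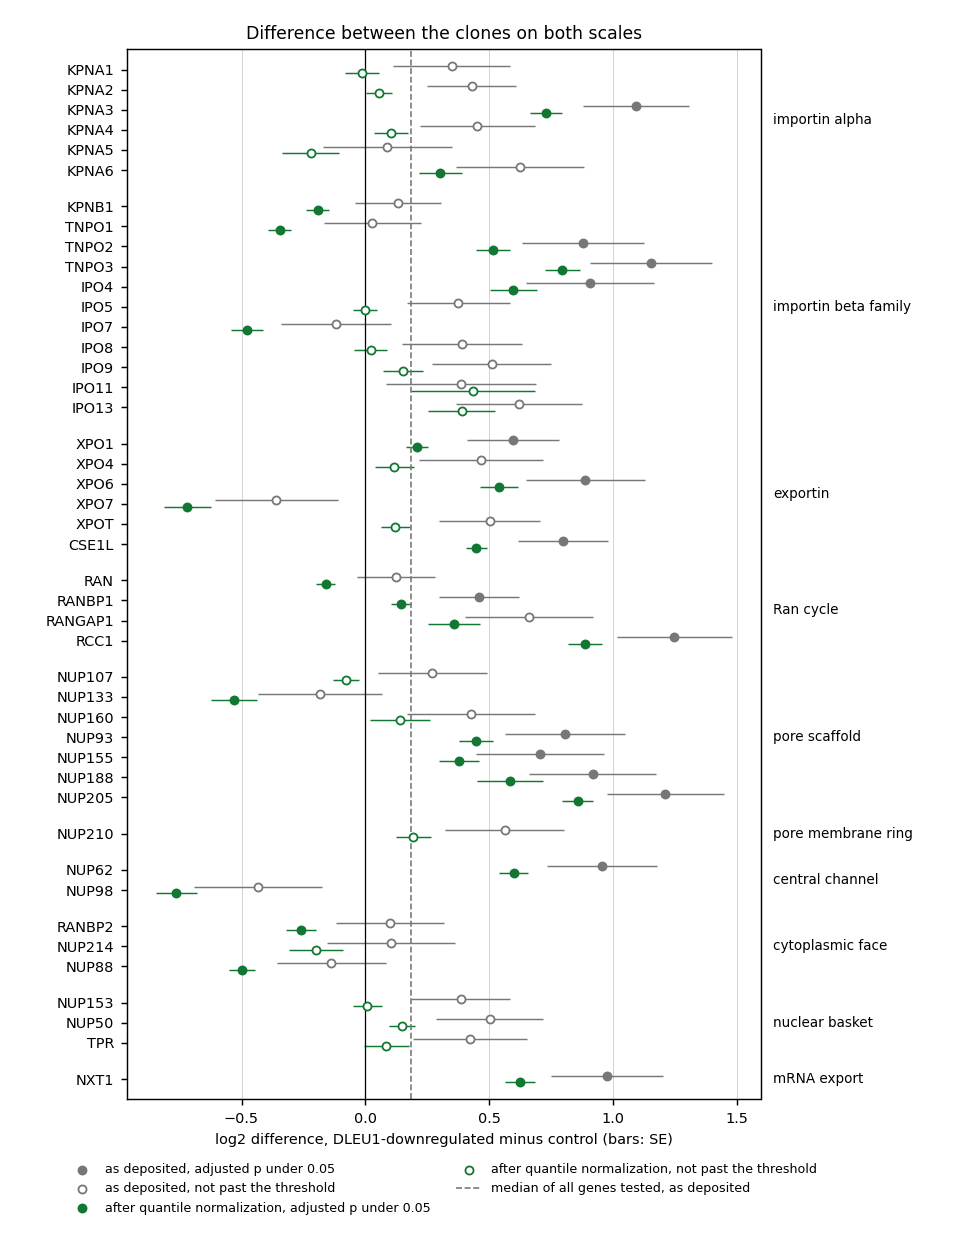
Log2 difference (DLEU1-downregulated minus control) of each measured gene as deposited and after quantile normalization, with bars of 1 SE. Differences lie lower after quantile normalization for every gene but IPO11, and 15 genes stand above 0 past the threshold on both scales.

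Promoter sequences are shown for 4 genes that rose, 1 each from the importin alphas, importin beta family, exportins and Ran cycle, because each holds the E-box CACGTG; they were chosen after the values were seen. The sequences are the 250 bases before the start site from RefSeq on GRCh38.p14, 5′ to 3′ on the gene's strand, with the E-box in capitals.
KPNA3, chr13:49792683-49792932, minus strand: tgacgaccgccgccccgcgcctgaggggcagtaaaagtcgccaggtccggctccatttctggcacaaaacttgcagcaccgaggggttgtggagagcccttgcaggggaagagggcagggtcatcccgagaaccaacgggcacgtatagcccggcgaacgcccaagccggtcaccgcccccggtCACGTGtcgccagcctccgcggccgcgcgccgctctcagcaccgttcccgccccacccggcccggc
TNPO2, chr19:12723933-12724182, minus strand: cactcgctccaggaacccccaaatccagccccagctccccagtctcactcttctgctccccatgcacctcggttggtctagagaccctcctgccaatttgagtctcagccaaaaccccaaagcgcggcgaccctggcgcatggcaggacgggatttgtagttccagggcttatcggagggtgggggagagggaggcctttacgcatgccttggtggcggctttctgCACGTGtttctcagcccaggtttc
XPO1, chr2:61537088-61537337, minus strand: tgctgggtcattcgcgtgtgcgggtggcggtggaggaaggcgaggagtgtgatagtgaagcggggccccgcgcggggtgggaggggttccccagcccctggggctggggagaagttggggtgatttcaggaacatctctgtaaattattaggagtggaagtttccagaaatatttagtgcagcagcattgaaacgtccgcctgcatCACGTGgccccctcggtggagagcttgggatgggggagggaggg
RCC1, chr1:28517976-28518225, plus strand: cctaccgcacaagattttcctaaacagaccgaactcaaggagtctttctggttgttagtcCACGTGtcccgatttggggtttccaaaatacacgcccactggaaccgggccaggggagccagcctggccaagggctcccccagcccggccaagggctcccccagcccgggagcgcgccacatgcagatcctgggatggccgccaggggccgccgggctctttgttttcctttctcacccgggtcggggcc
The E-box ends 60 bases before the start site in KPNA3, 18 in TNPO2, 38 in XPO1 and 184 in RCC1. RefSeq windows of 300 bases, which reach 50 bases past the start, were found by symbol for 41 of the 46 genes, NUTF2 and NXF1 included, with 55 windows in all. Read on both strands, CACGTG, which is its own reverse complement, stood in 9 of these 55 windows (16.4%) and in 7.26% of all 35116 windows. By gene, it stood in 9 of the 41 members and in 8.78% of all 27305 genes with a window. Of the 9, 6 are among the 14 members that rose and have a window, and 2 among the 7 lower after quantile normalization. Its share among all genes that rose, or among genes of like brightness, was not taken. Of the other 5 motifs searched, CCGGAAG stood in 20% of the members' windows against 10.3% of all, the 10-letter NRF1 motif in 5.46% against 1.24%, CCAAT in 40% against 34.6%, TCGCGAGA in 1.82% against 1.15%, and TTTCCCGC in 0 against 1.63%. These shares describe letters in the windows and were not tested.

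Of the 6 importin alphas, the adaptors that read nuclear localisation signals, 1 rose, KPNA3. It read 1491 and 1170.1 in the controls and 2494 and 3215 in the downregulated clone. Both downregulated arrays lay above both controls, with means of 1331 ± 227 and 2855 ± 510 (SD, n = 2 each), a 2.15-fold difference (log2 difference 1.09, SE 0.21, adjusted p = 9.63e-06; 0.73, SE 0.06, adjusted p = 4.54e-05 after quantile normalization). Its second probe set gave 445 and 338 against 866 and 833, and also rose on both scales (1.10 and 0.76). The exact permutation p for KPNA3 was 0.333, the smallest possible. Without DLEU1-downregulated replicate 2 the deposited difference of 0.91 no longer passed (adjusted p = 0.24), while the difference after quantile normalization lay between 0.65 and 0.81 and passed without any 1 array. KPNA2, the brightest importin alpha, read 3917 and 3614 against 4687 and 5478, which did not overlap, yet its differences of 0.43 and 0.06 did not pass (adjusted p = 0.0709 and 0.459). KPNA6 read 293 and 245 against 395 and 450.2; it passed after quantile normalization (0.30, adjusted p = 0.0265) and missed as deposited (0.62, adjusted p = 0.0655), while a dimmer probe set of it rose on both scales (1.06 and 0.75). KPNA1, KPNA4 and KPNA5 passed on neither scale, with differences between 0.09 and 0.45 as deposited and between -0.22 and 0.10 after quantile normalization.

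Among the 11 importin beta family genes, 3 rose. TNPO3, which carries SR splicing factors into the nucleus, read 557 and 437 in the controls against 1010.2 and 1235, a 2.26-fold difference (1.15, SE 0.24, adjusted p = 5.76e-05; 0.80, adjusted p = 4.54e-05 after quantile normalization). TNPO2, a transportin close to TNPO1, read 609 and 458 against 912 and 1062 (0.88, SE 0.24, adjusted p = 0.00344; 0.52, adjusted p = 0.000504). Of the 4 tested probe sets of TNPO2 only this 1 rose, and with its probe sets averaged TNPO2 no longer passed on both scales. IPO4, an importer of histones and ribosomal proteins, read 234 and 192 against 367 and 461 (0.91, SE 0.26, adjusted p = 0.0045; 0.60, adjusted p = 0.00129). In all 3 the downregulated arrays lay above the controls.

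KPNB1, importin beta itself, and TNPO1, which imports hnRNP proteins, changed sign with the scale. KPNB1 read 5508 and 4437 against 5168 and 5685, with overlapping groups (0.13, adjusted p = 0.646). After quantile normalization it read 5775 and 5392 against 4940 and 4822 and passed in the other direction (-0.19, SE 0.04, adjusted p = 0.0103). TNPO1 read 3384 and 2715 against 2908 and 3284 (0.03, adjusted p = 0.945), and 3575 and 3428 against 2767 and 2733 once quantile normalized (-0.35, SE 0.05, adjusted p = 0.000454). IPO7, an importer of ribosomal proteins and histone H1, read 1851 and 1377 against 1330.2 and 1623, which overlapped (-0.12, adjusted p = 0.761), and was lower after quantile normalization (-0.48, adjusted p = 0.000467). The other 5, IPO5, IPO8, IPO9, IPO11 and IPO13, passed on neither scale. Their differences lay between 0.37 and 0.62 as deposited and between -0.002 and 0.43 after quantile normalization. IPO11 was dim on its own probe set, at 9.3 and 13.7 against 20.5 and 19.1. Brighter probe sets are shared by IPO11 and the IPO11-LRRC70 readthrough gene. The brightest of them gave 242 and 223 against 317 and 398. It passed on neither scale (0.58, adjusted p = 0.0943 as deposited, and 0.27, adjusted p = 0.0891 after quantile normalization). A dimmer shared probe set gave 98.8 and 82.9 against 179 and 178, and rose on both scales (0.87 and 0.62).

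Of the 6 exportins, 3 rose. CSE1L, which returns importin alpha to the cytoplasm, was the brightest of them and read 3538 and 2894 against 5310.3 and 5855 (0.80, SE 0.18, adjusted p = 0.000208; 0.45, adjusted p = 6.05e-05). XPO6, the exporter of actin and profilin, read 669.8 and 594 against 1128 and 1235 (0.89, SE 0.24, adjusted p = 0.00245; 0.54, adjusted p = 0.00063); both of its probe sets carry the cross-hybridisation suffix _x_at. XPO1, also called CRM1, which exports proteins with a leucine-rich export signal, read 3515 and 2802 against 4366 and 5170.1 (0.60, SE 0.18, adjusted p = 0.00961; 0.21, adjusted p = 0.00799). Of the 3 probe sets of XPO1, 2 rose and a dim one had negative differences that did not pass (-0.43 and -0.40). With its probe sets averaged XPO1 no longer passed on both scales. By their brightest probe sets CSE1L, XPO6 and XPO1 each had the downregulated arrays above the controls. XPO7 read 916 and 611 against 558 and 603, so both downregulated arrays were below both controls, and it passed only after quantile normalization (-0.36, adjusted p = 0.316; -0.72, SE 0.10, adjusted p = 0.000468). XPO4 and the tRNA exporter XPOT passed on neither scale (0.47 and 0.50 as deposited, 0.12 in each after quantile normalization). A second XPOT probe set read 672 and 515 against 1328 and 1556 and rose on both scales (1.27 and 0.92).

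In the Ran cycle the chromatin-bound exchange factor RCC1 had the largest log2 difference of the 44 genes on both scales. It read 833 and 641 in the controls and 1549.8 and 1989 in the downregulated clone, a 2.40-fold difference with no overlap (1.25, SE 0.23, adjusted p = 3.13e-06; 0.89, SE 0.07, adjusted p = 2.36e-05). RANBP1, which helps strip Ran from receptors, read 6473 and 5967 against 8289 and 8809 (0.46, SE 0.16, adjusted p = 0.0242; 0.14, SE 0.04, adjusted p = 0.0227), the smallest difference among the 15 that rose. Its call was lost as deposited without any 1 of the arrays (adjusted p from 0.0794 to 0.524), with a common trimmed mean (0.13, adjusted p = 0.26), with no filter on dim probe sets, without the trend and with its probe sets averaged. RAN itself was the brightest gene of the class on the mean of the log2 values and read 8063 and 7108 against 7944 and 8576, which overlapped (0.12, adjusted p = 0.631). After quantile normalization RAN read 8268 and 8364 against 7572 and 7300.0 and passed as lower (-0.16, SE 0.04, adjusted p = 0.00874). RANGAP1, the GTPase activator, read 227 and 187 against 289 and 387 (0.66, adjusted p = 0.0501; 0.36, adjusted p = 0.0285). NUTF2, which brings Ran back to the nucleus, could be read only together with its pseudogene. There a bright probe set gave 3354 and 2835 against 3781 and 4387 (0.40, adjusted p = 0.115; 0.02, adjusted p = 0.722), and a dim one 93.6 and 82.7 against 314 and 337 (1.71, adjusted p = 4.05e-09; 1.45, adjusted p = 3.22e-05).

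Of the 16 nucleoporins, 5 rose: NUP62 and the inner ring genes NUP93, NUP155, NUP188 and NUP205. NUP205 read 713 and 603 against 1452 and 1629, a 2.34-fold difference (1.21, SE 0.24, adjusted p = 9.58e-06; 0.86, SE 0.06, adjusted p = 1.8e-05). NUP188 read 277 and 297 against 489 and 631 (0.92, adjusted p = 0.00357; 0.58, adjusted p = 0.00906), and NUP93, which anchors the ring, 664 and 511 against 982 and 1083 (0.81, adjusted p = 0.00742; 0.45, adjusted p = 0.000924). NUP155 read 334 and 263 against 462 and 528 (0.71, adjusted p = 0.0321; 0.38, adjusted p = 0.00688). In each of these 4 the groups did not overlap. With each gene's probe sets averaged, NUP155 and NUP205 still rose, and NUP93 and NUP188 no longer passed on both scales. NUP35, an inner ring gene outside the 46, read 1492 and 1219.5 against 1519 and 1814 and did not pass (0.30, adjusted p = 0.365; -0.05, adjusted p = 0.498). The split of the scaffold into inner ring and Y complex was made after the values were seen.

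The Y complex forms the outer rings of the pore. NUP107, the brightest scaffold gene, read 1592 and 1304 against 1604 and 1891 (0.27, adjusted p = 0.413; -0.08, adjusted p = 0.297). NUP133 read 779 and 520.0 against 522 and 597, which overlapped, and passed as lower after quantile normalization (-0.18, adjusted p = 0.659; -0.53, SE 0.09, adjusted p = 0.00233). NUP160 passed on neither scale by its brightest probe set (0.43 and 0.14). Its dimmest, at 24.5 and 27.2 against 55.6 and 53.5, rose (0.75 and 0.69). Of the Y complex genes outside the 46, NUP85 read 924 and 817 against 1241 and 1471 and rose (0.63, adjusted p = 0.0361; 0.28, adjusted p = 0.0107). SEH1L was higher as deposited alone (0.52, adjusted p = 0.0367; 0.15, adjusted p = 0.0723), and NUP37 was lower after quantile normalization alone (0.12 and -0.26). NUP43 (0.30 and -0.07), SEC13 (0.31 and -0.03) and the associated AHCTF1 (0.33 and -0.04) passed on neither scale. The membrane ring gene NUP210 read 760.0 and 659 against 1005 and 1104 without overlap, and missed the threshold on both scales (0.56, adjusted p = 0.0756; 0.19, adjusted p = 0.0647).

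The channel nucleoporins went opposite ways after quantile normalization. NUP62, an FG protein of the central channel, rose, with 1140.5 and 1006 against 1956 and 2236 (0.95, SE 0.22, adjusted p = 0.000301; 0.60, SE 0.06, adjusted p = 0.000101). A second NUP62 probe set also rose (1.13 and 0.79). Its dimmest, at 38.0 and 47.9 against 26.2 and 32.7, passed on neither scale (-0.37 and -0.45). With its probe sets averaged, NUP62 missed the threshold as deposited (0.57, adjusted p = 0.0633). It still passed after quantile normalization (0.31, adjusted p = 0.0418). NUP98, an FG protein that also binds active genes, read 506 and 418 against 303 and 374, with both downregulated arrays below both controls (-0.43, adjusted p = 0.229; -0.76, SE 0.08, adjusted p = 0.000167). A dimmer NUP98 probe set gave 279.6 and 274 against 132 and 185 and fell on both scales (-0.76, adjusted p = 0.0207; -1.06, adjusted p = 0.000429). The 3 probe sets of NUP98 were all lower after quantile normalization.

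No gene of the cytoplasmic face or the nuclear basket passed on both scales. RANBP2, the SUMO ligase of the cytoplasmic filaments, read 1826 and 1362 against 1546 and 1851 and turned sign with the scale (0.10, adjusted p = 0.8; -0.26, SE 0.06, adjusted p = 0.00979). NUP88 read 1851 and 1480.5 against 1409 and 1606, overlapping as deposited, and 1922 and 1892 against 1354 and 1337 once quantile normalized (-0.14, adjusted p = 0.719; -0.50, SE 0.05, adjusted p = 0.000125). NUP214, which sits beside it, did not pass (0.10 and -0.20). In the basket, NUP153 read 2609 and 2100.4 against 2721 and 3440.0 (0.38, adjusted p = 0.16; 0.01, adjusted p = 0.941), and NUP50 and TPR had differences of 0.50 and 0.42 as deposited and 0.15 and 0.08 after quantile normalization, none past the threshold. A dimmer TPR probe set, at 58.7 and 39.2 in the controls against 114 and 107, rose on both scales (0.98, adjusted p = 0.00143; 0.81, adjusted p = 0.00617).

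NXT1, the small partner of the mRNA exporter NXF1, rose, with 1130.1 and 851 in the controls against 1859.7 and 2031 (0.97, SE 0.23, adjusted p = 0.000264; 0.62, SE 0.06, adjusted p = 8.87e-05). Its arrays did not overlap, and its mean was 1.96-fold higher.

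Different probe sets of a gene read different stretches of its transcripts, and they did not always move alike. Of the 133 tested probe sets, 36 (27.1%) rose and 2 (1.5%) fell, against 15.9% and 4.81% of all tested probe sets at any brightness. As deposited 41 were higher and 2 lower, against 17.2% and 5.11%, and after quantile normalization 39 and 24, against 17.1% and 16.7%. The 2 that fell belonged to NUP98 and to NUP50, whose dim probe set gave -0.67 and -0.79 on the scales. In 24 of the 44 genes at least 1 probe set rose. Beyond the 15 these were KPNA6, KPNB1, TNPO1, IPO9, XPOT, RAN, RANGAP1, NUP160 and TPR. A gene with more probe sets has more chances of such a call, and no share over all genes was taken by this rule. All tested probe sets rose in 5 of the 36 genes with more than 1, KPNA3, TNPO3, XPO6, RCC1 and NUP205. In KPNB1, TNPO1 and RAN, by contrast, some probe sets passed as higher and others as lower after quantile normalization. For KPNB1 3 dimmer ones rose on both scales, with differences up to 1.09 and 0.73, where its brightest passed as lower. For RAN a second probe set, at 1984 and 1470 in the controls against 2319 and 2710.4, rose (0.55, adjusted p = 0.0423; 0.18, adjusted p = 0.0474). For TNPO1 6 probe sets were lower after quantile normalization, down to -0.77, and 1 dim one, at 6.2 and 3.6 against 17.2 and 24.3, was higher (0.86).

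**Figure D3:**
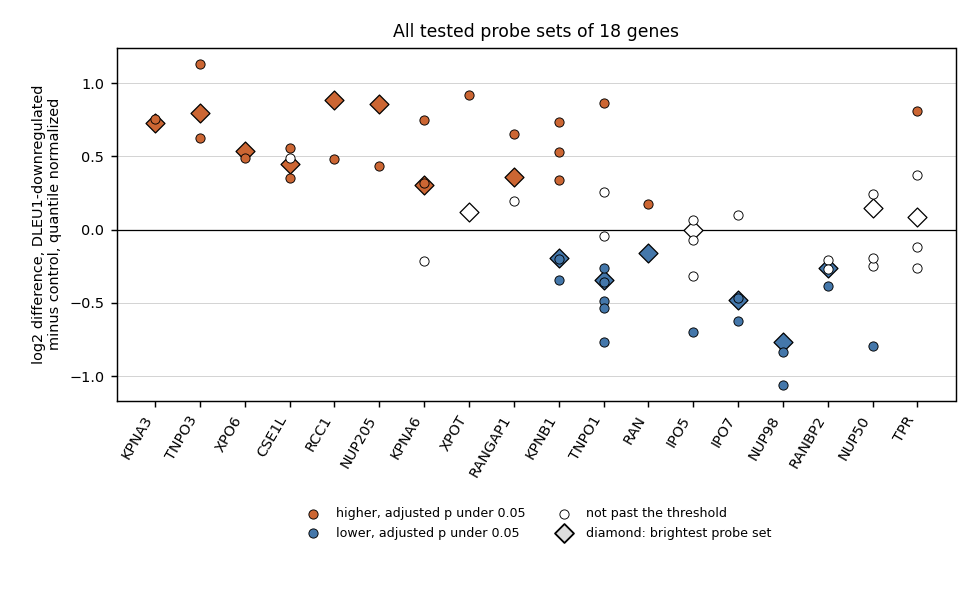
Log2 difference after quantile normalization (DLEU1-downregulated minus control) of every tested probe set of 18 genes, with 1 point per probe set and a diamond for the brightest. KPNA3, TNPO3, XPO6, RCC1 and NUP205 have all their points above 0 and past the threshold, and KPNB1, TNPO1 and RAN have coloured points on either side of 0.

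KPNA3 lies near DLEU1 on chromosome 13, and DLEU1 is the fifth measured gene from it in RefSeq order. Of the 10 nearest tested genes, 1 rose and 2 fell on both scales, and 1 of the 2 is DLEU1 itself, the gene the clone was made to lower. With DLEU1 among them, the median difference of the 10 was -0.30 after quantile normalization, beside -0.17 for the 240 tested genes of the chromosome. EBPL, the gene next to KPNA3 and a relative of the sterol isomerase EBP, read 1885 and 1708 in the controls against 2689.9 and 3004 and rose (0.66, adjusted p = 0.0104; 0.28, adjusted p = 0.00691). SETDB2, a histone lysine methyltransferase gene 4 measured genes away, read 723 and 458 against 358 and 362 and fell (-0.65, adjusted p = 0.0472; -0.99, adjusted p = 0.000234). Between KPNA3 and DLEU1, DLEU2 and TRIM13 were lower after quantile normalization alone (-0.49 and -0.31), and SPRYD7 and KCNRG passed on neither scale. CAB39L, RCBTB1 and ARL11 on the far side passed on neither scale.

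**Figure D4:**
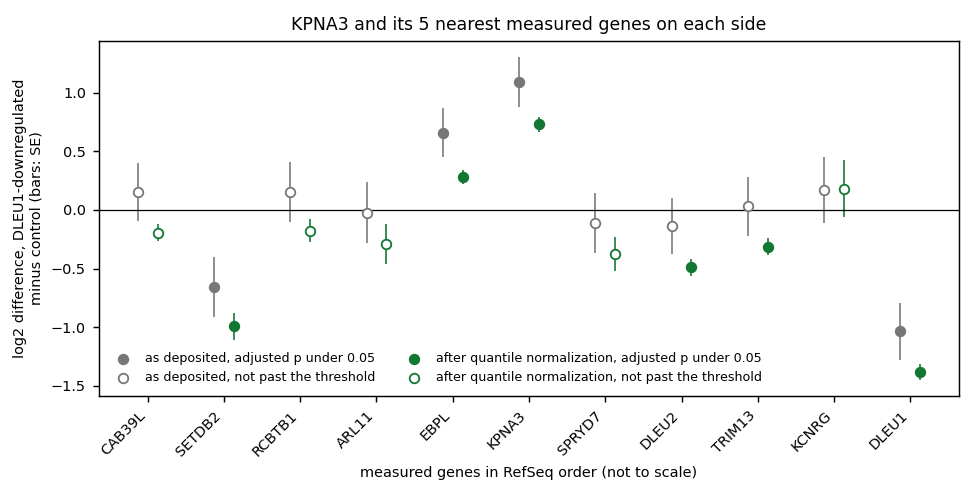
Log2 difference (DLEU1-downregulated minus control, bars of 1 SE) of KPNA3 and the 5 nearest measured genes on each side, in RefSeq order and not to scale, as deposited and after quantile normalization. KPNA3 and EBPL stand above 0 past the threshold on both scales, and SETDB2 and DLEU1 stand below it.

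Some members lay among neighbours that had moved the same way. Of the 15 that rose, TNPO3 and NUP205 lie on chromosome 7 and CSE1L and NXT1 on chromosome 20, where 42.9% and 40.5% of all tested genes rose. Among the 10 nearest tested genes, 5 rose beside TNPO3, 6 beside NUP205 and 5 beside CSE1L, against 2 beside NXT1. Without these chromosomes 11 of 40 members rose (27.5%), against 17.3% of all genes outside them and 27.6% of those in the members' middle range of brightness. Of these 11, XPO6, NUP93, NUP62 and NUP188 had neighbour medians of 0.36, 0.25, 0.24 and 0.22 after quantile normalization. From 1 to 3 of their 10 neighbours rose. RANBP1 and NUP155 had neighbour medians of 0.125 and 0.11, and KPNA3, TNPO2, IPO4, XPO1 and RCC1 had negative ones. RCC1 differed from its surroundings: its 10 neighbours had a median of -0.24 after quantile normalization.

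Among the members with negative differences, IPO7 and NUP98 lie on chromosome 11 and XPO7 on chromosome 8. Of the 10 genes nearest to IPO7, 5 fell on both scales, with a median of -0.69 after quantile normalization. Its flanking genes TMEM41B (-0.83 and -1.18) and ZNF143-AS1 (-0.82 and -1.03) both fell. Next to NUP98, PGAP2, a gene of GPI anchor remodelling, read 373 and 292 against 159.7 and 162 and fell (-0.97, adjusted p = 0.00218; -1.27, adjusted p = 3.43e-05), while CHRNA10 on the other side did not pass. The genes around XPO7 had a median of -0.43, with none past the threshold on both scales; of its flanking genes NPM2 did not pass and DOK2 was too dim to test. By their brightest probe sets NUP133, NUP88 and RAN stood apart from their surroundings. They were lower themselves after quantile normalization, with neighbour medians of 0.55, 0.16 and 0.26. Whether the shift of a neighbourhood has a part in the value of a member was not tested.

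**Figure D5:**
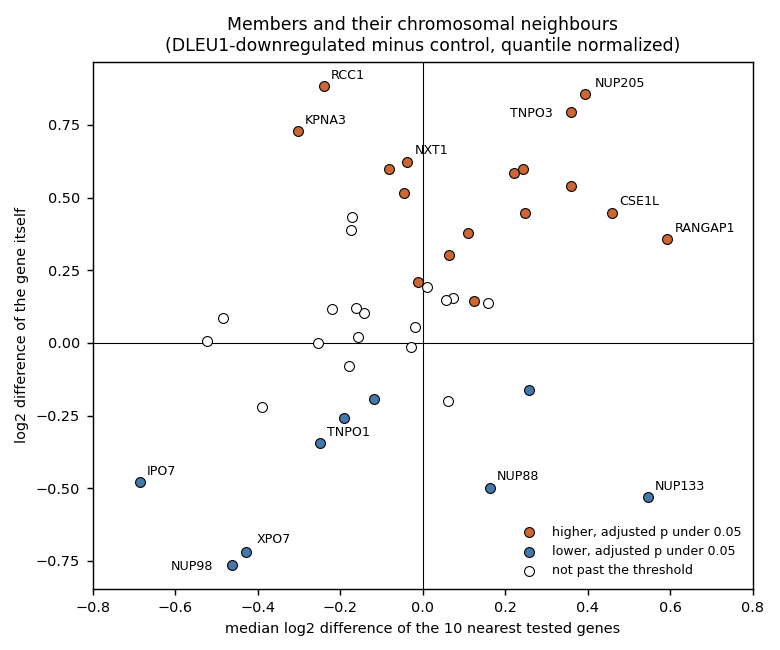
Log2 difference of each member after quantile normalization (vertical axis) against the median difference of its 10 nearest tested genes (horizontal axis), with 1 point per gene. NUP205, TNPO3 and CSE1L lie at upper right, IPO7, NUP98 and XPO7 at lower left, and KPNA3, RCC1 and NUP133 have neighbours of the opposite sign.

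Of 52 further genes of nuclear transport, the pore, mRNA export and Ran and SUMO accessories, 44 were tested; 12 (27.3%) rose and 1 (2.27%) fell on both scales, beside 19.2% and 5.37% of all genes. After quantile normalization alone 13 were higher and 10 lower (29.6% and 22.7%), beside 20.7% and 20.6% of all genes. Brighter genes were called higher more often, and no share was taken at the brightness of this list. Its median was 0.33 as deposited and -0.02 on the quantile scale. The 4 rises with the smallest p as deposited were ENY2, THOC5, PHAX and DDX19A; ranked by p after quantile normalization, NUP42, SNUPN and XPO5 came before THOC5 and DDX19A. ENY2, a subunit shared by the TREX-2 and SAGA complexes, read 2469.5 and 2099.7 against 4472 and 4758 (1.01, adjusted p = 5.1e-06; 0.63, adjusted p = 2.05e-05). THOC5, of the THO complex that couples transcription to export, read 249.3 and 147 against 396 and 422 (1.03, adjusted p = 0.00102; 0.72, adjusted p = 0.00358). PHAX, the adaptor for export of spliceosomal snRNA, had differences of 0.90 and 0.57, and the helicase DDX19A 0.91 and 0.58. THOC2, the large scaffold of the same THO complex as THOC5, was the gene that fell, with 1702 and 1464 against 965 and 1066 (-0.63, adjusted p = 0.0306; -1.0, adjusted p = 6.98e-06). By p as deposited the next genes with negative differences were SENP1, SARNP and NUP62CL, at -0.33, -0.28 and -0.27 (adjusted p = 0.397, 0.418 and 0.504); they passed only after quantile normalization (-0.65, -0.63 and -0.55), where the order by p differs. As deposited, 14 of the 44 were higher, and 4 were without control replicate 2 and 0 without either DLEU1-downregulated array; after quantile normalization 8 to 17 were.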

How the data were processed

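RNA of Raji clones was profiled on 4 arrays, 2 per group. The authors deposited 1 intensity per array for 54675 probe sets, 62 of them control probe sets. Values were on a linear scale, computed with MAS5 per the submitters' processing notes, with no version or target stated in the labels. The arrays did not share a trimmed mean, so results are given as deposited, as the design set out, and after quantile normalization.

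From these values log2(value + 16) was taken, control probe sets and 21845 probe sets under the 40th percentile of mean log2 were left out, and the groups were compared with limma 3.58.1 in R 4.3.3 (lmFit, eBayes with trend), with Benjamini-Hochberg adjustment over 32768 probe sets. The prior degrees of freedom were infinite as deposited and 6.76 after quantile normalization. The deposited SEs and p-values therefore rest on a spread set by brightness, not on the duplicates of each gene. Symbols came from the platform annotation, where 41091 probe sets name 1 gene; 41043 matched RefSeq (GRCh38.p14) by gene identifier, which also gave gene order and promoters. The number of arrays limits the precision.

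Named members, each with its value on every array, are those past the threshold in one direction on both scales, those that turn sign and pass on either, and the brightest of each role; neighbours of KPNA3, IPO7, NUP98 and XPO7, differing probe sets, and up to 4 further pathway genes in each direction follow; any other gene was chosen after its values were seen. The members and lists were chosen with earlier results of these data known. Replicate numbers did not pair the arrays (correlation of deviations -0.05 as deposited and -0.01 after quantile normalization).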

Additional observations from a re-analysis of the deposited data

How the results depend on the processing

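The change of DLEU1 stayed negative and that of KPNA3 positive under every alternative run. With the replicate block, which the numbers do not support as a pairing, their deposited differences of -1.04 and 1.09 missed the threshold (adjusted p = 0.162 and 0.0855), and 0 transport and pore genes and 0 of the other pathway genes were called higher or lower as deposited; after quantile normalization the block gave 17 higher and 9 lower members and 10 lower pathway genes. Leaving out each array gave -1.24 to -0.83 for DLEU1, 0.91 to 1.27 for KPNA3, 0 to 21 higher members, 0 to 15 on both scales, and 0 to 18 higher and 0 to 1 lower pathway genes. With quantile normalization as well, those ranges were 7 to 9 lower members, and 8 to 17 higher and 8 to 9 lower pathway genes. Median centring called 32 members higher and 1 lower, and 28 pathway genes higher. A common trimmed mean called 8 members and 9 pathway genes lower, and quantile normalization 9 and 10, against 0 and 1 as deposited. With each gene's probe sets averaged, after quantile normalization 5 members and 7 pathway genes were lower, and as deposited 2 pathway genes were; on both scales 13 members were higher, 9 of them among the 15. For pathway genes, no filter gave 8 higher and 0 lower, eBayes without a trend 9 and 0, and a threshold of 0.01 gave 7 and 0. KPNB1, RAN, RANBP2 and TNPO1 turned negative after quantile normalization (-0.19, -0.16, -0.26 and -0.35, the same with the block). With an array left out as well they lay at -0.24 to -0.14 (-0.21 without DLEU1-downregulated replicate 1), -0.19 to -0.15 (-0.17 without control replicate 1), -0.32 to -0.20 (-0.29 without DLEU1-downregulated replicate 2) and -0.38 to -0.32 (-0.34 without DLEU1-downregulated replicate 2), and with a common trimmed mean KPNB1, RANBP2 and TNPO1 lay at -0.20, -0.23 and -0.30. With probe sets averaged after quantile normalization RANBP2 was at -0.28, but KPNB1 was at 0.14 and passed as higher (adjusted p = 0.0371), and RAN (0.01) and TNPO1 (-0.10) did not pass. The fits that add a choice to quantile normalization, and the counts on both scales, were chosen after seeing the data. The cause of these moves was not tested. With 2 arrays a group, 1 clone each and no common array level, small differences rest on the scale chosen.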
